A study of Homo sapiens with 8 samples.

Results

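The mucin genes measured here are 10 of the 18404 genes that the arrays name by a single symbol: MUC1, MUC2, MUC4, MUC5B, MUC6, MUC12, MUC13, MUC16, MUC17 and MUC20. They were taken as the probe sets annotated with exactly 1 of these symbols, 12 of 19158 probe sets, since MUC12 has 3 and each other gene has 1. MUC5AC, the mucin of the gastric surface, was not analysed here.

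The cells were HSC39, an established human line of signet ring gastric carcinoma, a tumour whose cells are filled with mucus. The groups were 4 arrays of cells given All stars negative siRNA, 2 arrays of TRIM44-SiRNA(7) and 2 arrays of TRIM44-SiRNA(9), called siRNA 7 and siRNA 9 here, and the protocol gives 100 nm of TRIM44 siRNA for 48 hours. All groups are the same line, and the study's design pools the reagents into 1 condition of 4 replicates called biological. Separate cultures are not named, so p-values here cover array-to-array spread that may be technical. TRIM44 is a tripartite motif protein, and the comparison asks which transcripts differ when its messenger RNA is lowered.

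Mucins are large proteins with long stretches rich in serine, threonine and proline that carry dense O-linked sugar chains. The gel-forming members, here MUC2, MUC5B and MUC6, are packed into granules, secreted and linked into the polymers of mucus. The membrane members, here MUC1, MUC4, MUC12, MUC13, MUC16, MUC17 and MUC20, are held at the apical cell surface, where MUC1 and MUC4 can associate with receptors of the ERBB family. In the healthy stomach MUC5AC and MUC6 are the main gel-forming mucins, while MUC2 is the mucin of intestinal goblet cells.

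Several of the genes lie next to each other. MUC6, MUC2 and MUC5B are on chromosome 11, with MUC5AC between the latter pair, MUC20 and MUC4 are neighbours on chromosome 3, and MUC12 and MUC17 are neighbours on chromosome 7, where MUC3A precedes them. MUC13 lies on chromosome 3 beside ITGB5 and HEG1, MUC1 on chromosome 1 and MUC16 on chromosome 19. RefSeq promoters of build GRCh38.p14, from 250 bases before to 50 after the annotated start, were at hand for 7 of the 10 genes. The 100 bases just before the start are shown for MUC1, the member with the smallest p-value against negative siRNA, for MUC2, the goblet cell mucin, and for MUC12 and MUC16, which are among the members that varied most between arrays. Each is read 5′ to 3′ on the gene's strand, at chr1:155192916-155193015 (minus), chr11:1074774-1074873 (plus), chr7:100969465-100969564 (plus) and chr19:9065752-9065851 (minus), and capitals mark matches to TATAAA or GGGCGG on either strand.
MUC1: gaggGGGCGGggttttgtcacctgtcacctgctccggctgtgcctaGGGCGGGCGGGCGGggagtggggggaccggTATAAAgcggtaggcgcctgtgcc
MUC2: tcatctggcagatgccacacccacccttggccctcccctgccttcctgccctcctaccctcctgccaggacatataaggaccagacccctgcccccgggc
MUC12: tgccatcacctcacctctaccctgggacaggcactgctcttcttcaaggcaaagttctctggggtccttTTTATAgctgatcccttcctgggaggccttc
MUC16: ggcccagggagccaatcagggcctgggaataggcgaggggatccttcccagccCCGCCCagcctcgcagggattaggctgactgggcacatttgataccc

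The 4 sequences differ in base composition and in these letters. MUC1 has a GC content of 71.0% in these 100 bases, against 66.0% for MUC2, 65.0% for MUC16, 54.0% for MUC12 and, not shown, 41.0% for MUC13. TATAAA, the letters of the TATA box, was found in the full 300-base windows of MUC1 and MUC12, that is 2 of 7 genes. Of 35116 RefSeq promoters of the same length 11.5% hold it. In the 100 bases shown, the MUC12 match is the reverse complement, TTTATA. Variants, such as the letters atataag of MUC2, were not counted. GGGCGG, the core bound by SP1, was found for MUC1, MUC2, MUC4 and MUC16, that is 4 of 7, and 45.0% of all promoters hold it. TTTATG, a core bound by CDX2, was found for MUC2 alone among the 7, beside 10.6% of all promoters, and AGATAA, bound by GATA factors, for 0 of 7, beside 10.3%. These counts describe letters in the first listed start of each gene, on both strands, and are no test of binding.

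TRIM44 lay at 11.77 to 12.02 on the log2 scale with negative siRNA and at 10.85 to 11.27 with either reagent, a difference of -0.81 (SE 0.10, limma adjusted p = 0.0449), and the exact permutation p was 0.0286, the smallest that 70 assignments allow. The call of TRIM44 ended (adjusted p at or above 0.0587) with any 1 array left out other than siRNA 7 array 2, with differences between -0.87 and -0.73. It also ended with median centring, with all probe sets tested, with the siRNA as a random block and with the replicate number as a block (adjusted p = 0.108, 0.442, 0.108 and 0.998). Of the 4 negative arrays, array 2 was the lowest for 42.4% of genes and array 4 the highest for 40.6%. Array medians lay between 6.78 and 6.87, which gives a scale for the levels below; a signal over background is not given, so a dim probe set cannot be told from an absent transcript, and the level of a probe set cannot be set against that of another. In these bulk RNA samples, fewer cells expressing a gene and less RNA per cell cannot be told apart.

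No mucin gene passed the test for a change with TRIM44 siRNA. With both reagents taken as 1 condition, 0 of 12 probe sets passed in limma (adjusted p of 0.999 or more), 0 had an unadjusted p under 0.05, and for 0 of 12 did the groups separate without overlap. Over all 19158 probe sets tested, 0.00522% passed, 1041 had an unadjusted p under 0.05 and 2.86% had groups without overlap. Differences of the 10 genes, on the brightest probe set of each, ran from -0.19 for MUC12 to 0.13 for MUC4, 7 above and 3 below 0, with a median of 0.05 beside 0.01 over all probe sets. Their median size without sign was 0.08, beside 0.07 over all probe sets.

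**Figure D1:**
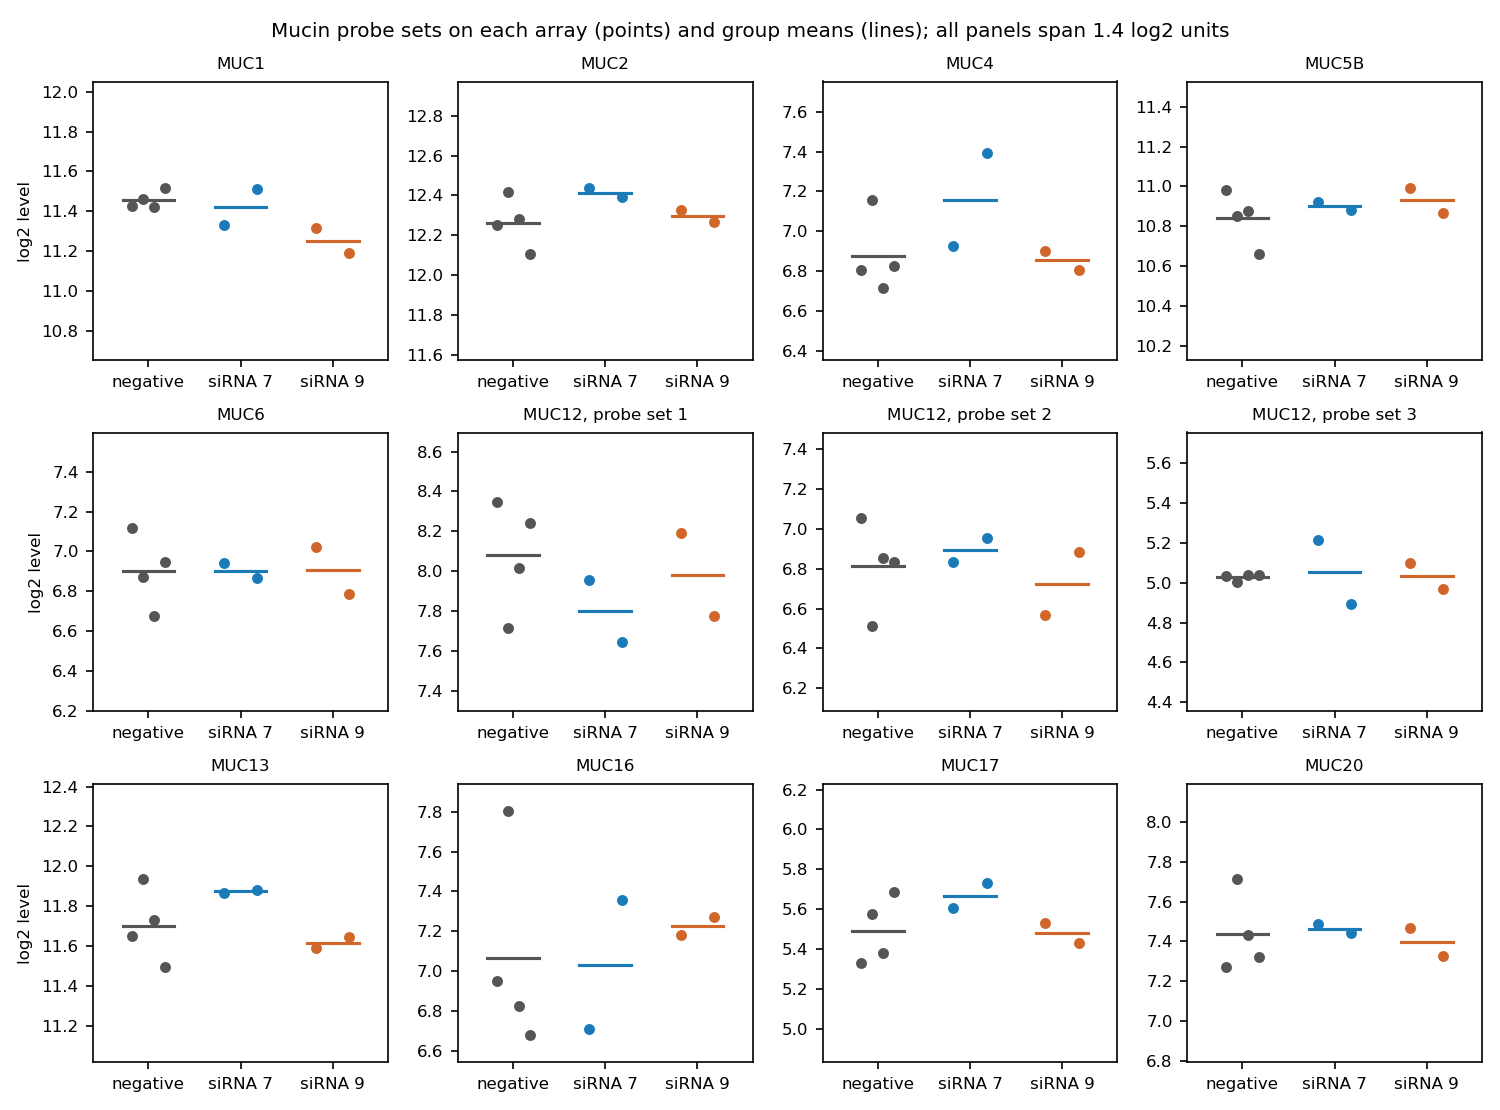
Deposited log2 levels (vertical axis) of the 12 mucin probe sets on 4 arrays of negative siRNA, 2 of siRNA 7 and 2 of siRNA 9 (horizontal axis); points are arrays, lines are group means, and each panel spans the same height. The groups overlap in every panel when both reagents are pooled, and MUC16 has the widest scatter, from 6.68 to 7.81 within the negative arrays.

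Among the gel-forming mucins, MUC2 lay at 12.25, 12.42, 12.28 and 12.11 on negative arrays 1 to 4, at 12.44 and 12.39 with siRNA 7 and at 12.33 and 12.27 with siRNA 9. The groups overlapped: siRNA 7 array 1 lay just above the negative range, and the other 3 siRNA arrays lay inside it. Group means were 12.26 ± 0.13 (SD, n = 4) and 12.36 ± 0.07 (SD, n = 4), a difference of 0.09 (SE 0.09), and the 95% interval of -0.09 to 0.28 corresponds to 93.7% to 121% of the control level. A 2-sided exact permutation test gave p = 0.257.

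MUC5B, which forms the gel of airway and salivary mucus, lay at 10.98, 10.85, 10.88 and 10.66 with negative siRNA, at 10.92 and 10.88 with siRNA 7 and at 10.99 and 10.87 with siRNA 9. One siRNA 9 array stood just above the negative range and the other 3 siRNA arrays lay inside it. The difference was 0.07 (95% interval -0.11 to 0.26), with an exact permutation p of 0.343.

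MUC6, the mucin of gastric gland neck cells, lay at 7.12, 6.87, 6.68 and 6.95 with negative siRNA, at 6.94 and 6.86 with siRNA 7 and at 7.02 and 6.79 with siRNA 9. The siRNA arrays sat inside the negative range, and the difference was 0.00 (95% interval -0.22 to 0.22, 86.1% to 116% of the control level). The 3 chromosome 11 neighbours thus had differences of 0.00, 0.09 and 0.07 in the order MUC6, MUC2, MUC5B.

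Among the membrane mucins, MUC1, whose cytoplasmic tail binds beta-catenin and kinases, lay at 11.43, 11.46, 11.42 and 11.51 with negative siRNA. With siRNA 7 it lay at 11.33 and 11.51, and with siRNA 9 at 11.31 and 11.19. The negative arrays were close together, with an SD of 0.04, the first siRNA 7 array lay below all 4 and the second beside the highest, and both siRNA 9 arrays lay below all 4. The pooled difference was -0.12 (95% interval -0.30 to 0.06), with an exact permutation p of 0.114.

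MUC13, a membrane mucin of the gut surface, lay at 11.65, 11.93, 11.73 and 11.50 with negative siRNA, at 11.87 and 11.88 with siRNA 7 and at 11.59 and 11.64 with siRNA 9. The reagents fell on opposite sides of the negative mean of 11.70, each within the negative range. The pooled difference was 0.04 (95% interval -0.19 to 0.27, 87.6% to 121% of the control level).

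MUC4, a membrane mucin with EGF-like domains, lay at 6.81, 7.16, 6.71 and 6.82 with negative siRNA, at 6.93 and 7.39 with siRNA 7 and at 6.90 and 6.81 with siRNA 9. Its highest values were siRNA 7 array 2 and negative array 2, so 1 array in each of these groups set the group's spread. The difference of 0.13 (95% interval -0.16 to 0.42) became 0.00 without siRNA 7 array 2 and 0.22 without negative array 2. Its chromosome 3 neighbour MUC20, which was described as a partner of the MET receptor, had 7.27, 7.71, 7.43 and 7.32 with negative siRNA, 7.49 and 7.44 with siRNA 7 and 7.47 and 7.33 with siRNA 9. For MUC20 all siRNA arrays lay within the negative range, and the difference was -0.01 (95% interval -0.22 to 0.21).

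MUC16, the carrier of the CA125 antigen, varied most between arrays. It lay at 6.95, 7.81, 6.82 and 6.68 with negative siRNA, at 6.71 and 7.35 with siRNA 7 and at 7.18 and 7.27 with siRNA 9. Negative array 2 was the highest of all arrays and another negative array the lowest, so the negative group spanned the full range. The difference was 0.06 (95% interval -0.40 to 0.53), 0.31 without negative array 2 (adjusted p = 0.561) and -0.06 without negative array 4, so its sign rests on single arrays.

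MUC12 and MUC17, long membrane mucins of the intestine, are neighbours. On its brightest probe set MUC12 lay at 8.35, 7.72, 8.02 and 8.24 with negative siRNA, at 7.95 and 7.65 with siRNA 7 and at 8.19 and 7.78 with siRNA 9, a difference of -0.19 (95% interval -0.50 to 0.12). The other MUC12 probe sets had -0.01 and 0.01, with levels of 6.81 ± 0.23 and 5.03 ± 0.02 (SD, n = 4) on the negative arrays, so the probe sets of this gene disagree on the size. Without negative array 2, the lowest of the negative arrays on the brightest probe set, its difference was -0.31 (adjusted p = 0.520).

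MUC17 lay at 5.33, 5.57, 5.38 and 5.69 with negative siRNA, at 5.61 and 5.73 with siRNA 7 and at 5.53 and 5.43 with siRNA 9. Only siRNA 7 array 2 lay above the negative range, and the difference was 0.08 (95% interval -0.13 to 0.30).

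**Figure D2:**
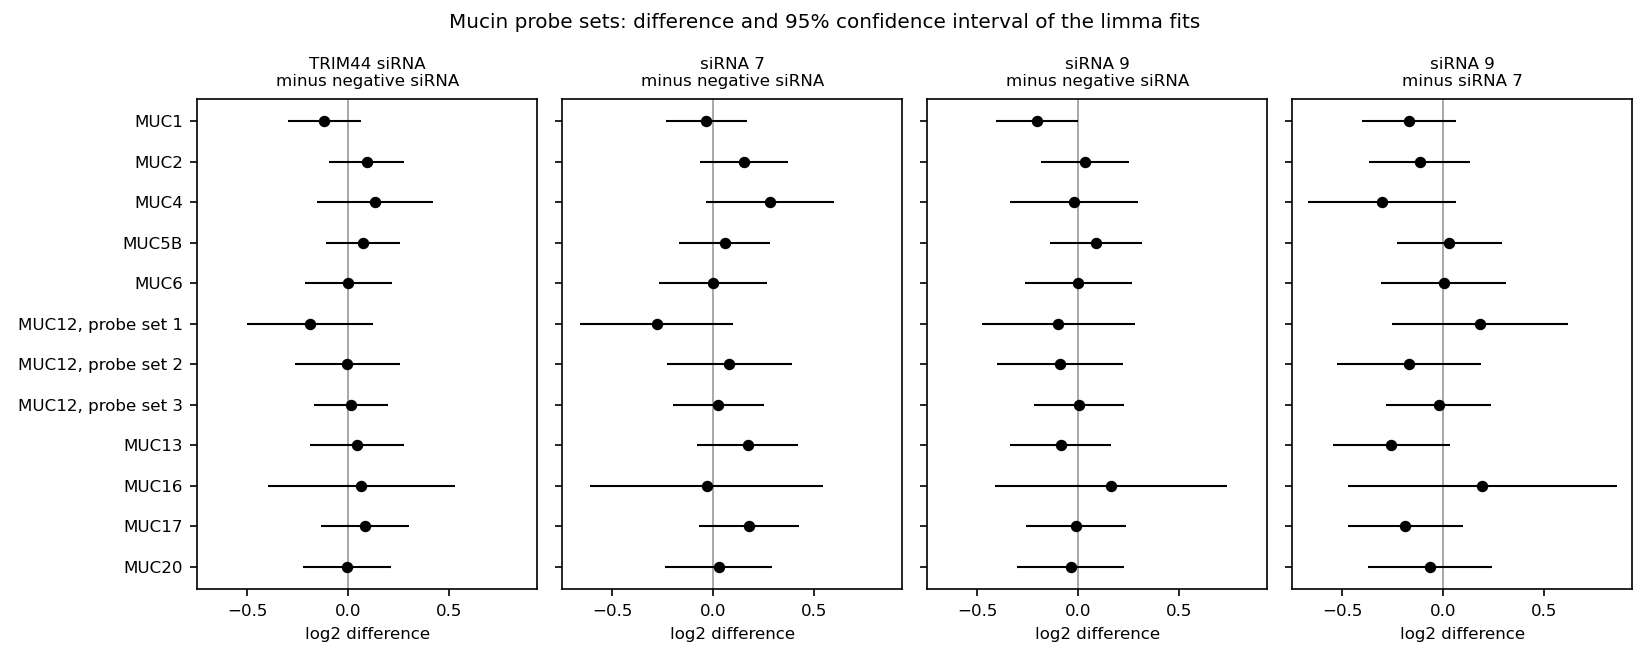
Log2 differences (horizontal axis) of the 12 mucin probe sets (vertical axis) in 4 comparisons; points are limma estimates and lines 95% confidence intervals, unadjusted. The interval of MUC1 for siRNA 9 minus negative siRNA, -0.41 to -0.00, is the only one that does not include 0, and its adjusted p was 0.360.

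Taken alone against the same 4 negative arrays, siRNA 7 gave no mucin gene that passed. In limma 0 of 12 probe sets passed (adjusted p from 0.742 to 0.999), 0 had an unadjusted p under 0.05, and 0 of 12 had groups without overlap. Of all 19158 probe sets 0.0679% passed, 1430 had such a p and 14.4% had groups without overlap. The largest differences were 0.28 for MUC4 (95% interval -0.03 to 0.60) and -0.28 for MUC12 (95% interval -0.66 to 0.10), while MUC17 had 0.18, MUC13 0.17 and MUC2 0.15. For MUC4 the value was 0.05 without siRNA 7 array 2 and 0.52 without siRNA 7 array 1, and for MUC12 it was -0.13 and -0.43, so both were smaller without array 2. With negative array 2 left out, 4 mucin probe sets had an unadjusted p under 0.05 with siRNA 7, 1 with siRNA 9, 1 with both reagents and 2 between the reagents, and 0 of 12 passed in each case. Of all 19158 probe sets 2035, 3791, 1707 and 3822 had such a p, in the same order.

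With siRNA 9 no mucin gene passed, and only MUC1 lay apart from the negative arrays, where 22.7% of all probe sets did. The MUC1 difference from negative siRNA was -0.20 (SE 0.09, unadjusted p = 0.0479, limma adjusted p = 0.360). That is 86.8% of the control level, with a 95% interval of 75.4% to 99.8%. In limma 0 of 12 probe sets passed, 1 of 12, MUC1, had an unadjusted p under 0.05, and 1 of 12 had groups without overlap. Of all 19158 probe sets 0.924% passed, 2608 had such a p and 22.7% had groups without overlap. After quantile normalization the MUC1 difference was -0.17 and 0 of 12 mucin probe sets had such a p. It was also 0 of 12 with all probe sets tested, with the replicate number as a block and without negative array 1, 3 or 4. The other members ran from -0.10 for MUC12 to 0.16 for MUC16, whose interval reached from -0.41 to 0.74, and MUC2 had 0.03, MUC5B 0.09 and MUC13 -0.09. MUC16 stood at 0.41 without negative array 2 (adjusted p = 0.174).

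Set against each other, the reagents gave no mucin gene that passed. siRNA 9 minus siRNA 7 was -0.30 for MUC4 (95% interval -0.67 to 0.06), -0.26 for MUC13 (95% interval -0.55 to 0.03), -0.19 for MUC17, -0.17 for MUC1 and -0.12 for MUC2, and it was 0.19 for MUC16 and 0.18 for MUC12. Of the 10 genes 4 were higher and 6 lower with siRNA 9. In limma 0 of 12 probe sets passed (adjusted p from 0.383 to 0.997) and 0 had an unadjusted p under 0.05, beside 2.23% of all probe sets past the threshold. The 2 arrays of each reagent did not overlap for 5 of 12 probe sets, beside 48.6% of all. The intervals leave differences of up to 0.86 in size for MUC16 and 0.67 for MUC4.

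The members also varied among themselves from array to array, across groups. Of the 4 negative arrays, array 2 was the highest for 5 of 10 mucin genes, MUC2, MUC4, MUC13, MUC16 and MUC20, where it was the highest for 27.5% of all genes, and it was the lowest for 1 of 10, MUC12, where it was the lowest for 42.4% of all genes. With each gene centred on its own mean, the 10 genes averaged 0.13 on negative array 2 and 0.09 on siRNA 7 array 2, and -0.08 on negative array 3 and siRNA 9 array 2. The median SD over the negative arrays was 0.18 for the mucin genes and 0.13 for all genes.

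For MUC16, MUC12 and MUC4, the members of widest range over the 8 arrays, the 4 genes of nearest profile were found by the root mean square difference between log2 profiles, each centred on its mean. MUC16 lay nearest to the small nucleolar RNA genes SNORD79 (0.088), SNORD42A (0.092) and SNORD45A (0.105) and to the pseudogene ZNF702P (0.113), where the median gene was at 0.397. SNORD79 lay at 7.76 on negative array 2, 7.30 on siRNA 7 array 2 and 6.51 to 7.07 on the other arrays. Thus 3 of the 4 nearest genes of MUC16 encode small RNAs that are not protein messages.

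MUC4 lay nearest to ANP32D (0.058), the pseudogene RPSAP15 (0.073), ERO1B (0.075) and the small nuclear RNA gene RNU5E-1 (0.078), beside 0.258 for the median gene, and all 5 were highest on siRNA 7 array 2. MUC12 ran the other way. It lay nearest to TCEA2 (0.091), SLC8A2 (0.096), ZNF385C (0.096) and ZDHHC1 (0.098), beside 0.251, and TCEA2 had its lowest values, 7.66 and 7.66, on negative array 2 and siRNA 7 array 2. These distances are descriptions over 8 arrays with no test, and the points share the arrays' normalization.

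**Figure D3:**
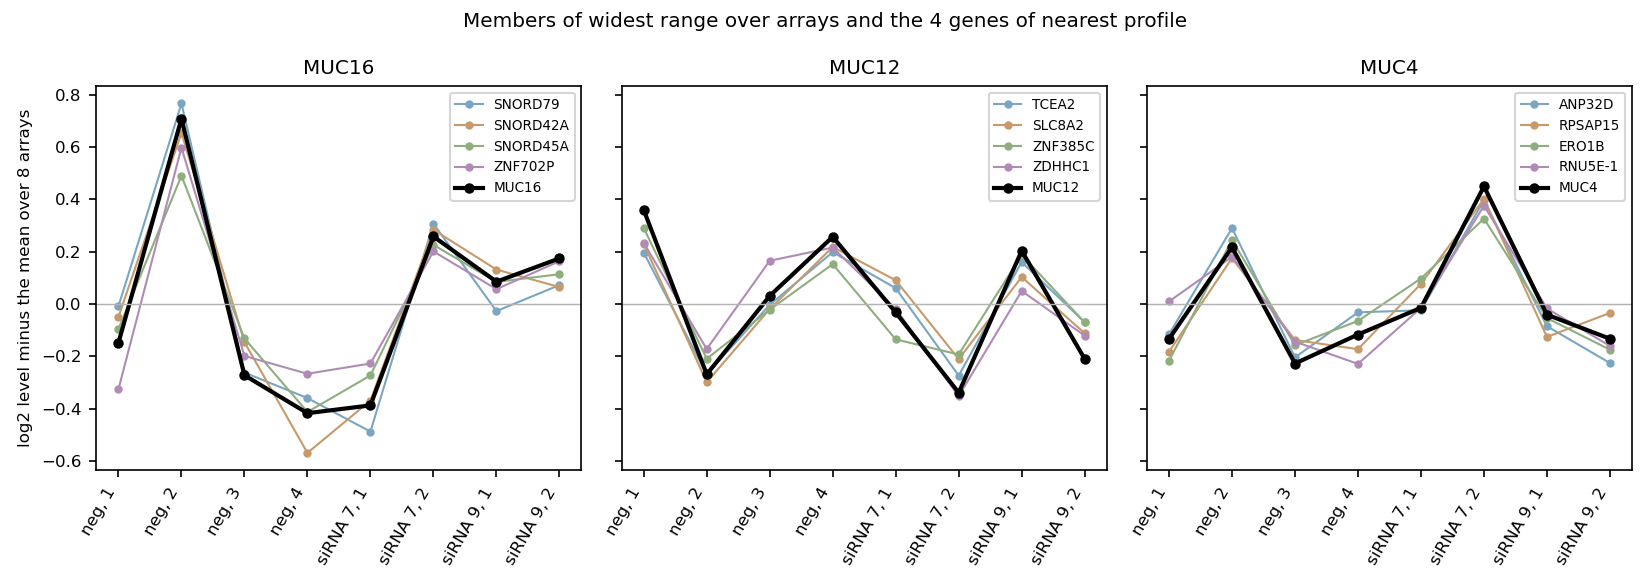
Log2 level minus the gene's mean (vertical axis) on the 8 arrays (horizontal axis, in no order; lines only join the points of a gene) for MUC16, MUC12 and MUC4 in black and their 4 nearest genes in colour. MUC16 and MUC4 have peaks on negative array 2 and siRNA 7 array 2, where MUC12 is low.

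The other genes of the mucin family were taken from a list of 15. Of these 15 listed mucin and mucin-like genes outside the 10, 11 were measured, and 0 passed against negative siRNA with both reagents, with siRNA 7 or with siRNA 9. With both reagents MUC3A, the neighbour of MUC12, had -0.20, MUC21 -0.14, the salivary mucin MUC7 -0.08, MUC15 0.04 and MUC19 0.02. CD164, a sialomucin of endosomes and the cell surface, differed between the reagents: it lay at 12.28 and 12.29 with siRNA 7 and at 11.63 and 11.75 with siRNA 9, a difference of -0.60 (SE 0.12, limma adjusted p = 0.0269). The negative arrays, at 12.09 to 12.37, stood with siRNA 7, and against them siRNA 9 had -0.49 (adjusted p = 0.0522). The call between reagents ended with all probe sets tested, without negative array 3 and without any 1 of the 4 siRNA arrays. Over all alternatives the difference ran from -0.66 to -0.52. Without a siRNA 9 array a single array of that reagent is left. Calls were then lost for every gene, not for CD164 alone.

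O-glycans start when a GalNAc transferase of the GALNT family adds the first sugar to serine or threonine. Of 17 listed, 16 were measured and 0 passed in any of the 4 comparisons, with 8 above and 8 below 0 for both reagents and a median of 0.01, equal to that of all probe sets. GALNT8 had 0.17, GALNT3 0.15, GALNT6 -0.12 and GALNT11 0.11 with both reagents. By reagent GALNT6 had -0.30 and GALNT7 -0.25 with siRNA 7 (adjusted p = 0.705 and 0.659) and GALNT11 had 0.26 with siRNA 9 (adjusted p = 0.192).

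Of the enzymes that extend and cap these chains, 27 of 28 were measured, and 0 passed against negative siRNA in any of the 3 comparisons. ST6GALNAC1, which makes the sialyl-Tn antigen, lay at 9.83 to 10.10 on the negative arrays and at 9.74, 9.56, 9.75 and 9.62 on the siRNA arrays, which were all lower. Its difference was -0.29 (95% interval -0.48 to -0.11, limma adjusted p = 0.788), with -0.31 for siRNA 7 and -0.27 for siRNA 9. FUT2, which makes the secretor fucose linkage, had -0.20, also with all siRNA arrays below all negative arrays. Groups without overlap were found for 2.86% of all probe sets, and ST6GALNAC1 and FUT2 were named for their small unadjusted p. The sialyltransferase gene ST3GAL1 had 0.40 and the sulfotransferase gene CHST5 had -0.44. For FUT2, ST3GAL1 and CHST5 the limma adjusted p ran from 0.792 to 0.907.

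B3GNT6, the core 3 synthase of gut mucins, differed between the reagents. It lay at 11.43 and 10.95 with siRNA 7, at 10.47 and 10.30 with siRNA 9 and at 10.71 to 11.06 with negative siRNA, so that only siRNA 9 left the negative range on both arrays. siRNA 9 minus siRNA 7 was -0.80 (SE 0.16, limma adjusted p = 0.0293), while each reagent alone against negative siRNA had 0.31 and -0.49 (adjusted p = 0.651 and 0.139). Without siRNA 7 array 1 the difference was -0.56 and the call ended, as it did without either siRNA 9 array and with all probe sets tested. The loss without a siRNA 9 array was common to every gene.

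Of the genes for folding, packing and co-secretion of mucus, 24 of 25 were measured, and CLCA1, a secreted protein of goblet cell mucus, was the only one that passed, rising with siRNA 7. It lay at 7.13, 7.79, 7.53 and 7.13 with negative siRNA, at 9.16 and 9.10 with siRNA 7 and at 7.34 and 7.35 with siRNA 9. The rise was 1.74 (SE 0.16, limma adjusted p = 0.00429) with siRNA 7 and the difference was -0.05 with siRNA 9; the reagents differed by -1.79 (adjusted p = 0.00264). Against negative siRNA the CLCA1 call held with each negative array left out. The difference was 1.71 without siRNA 7 array 1 and 1.77 without siRNA 7 array 2. With all probe sets tested and with the replicate number as a block the call ended (adjusted p up to 0.189), where 0 of all probe sets passed. Between reagents it ended with all probe sets and without either siRNA 9 array, the latter a loss common to every gene. On the same siRNA 7 arrays MUC2 had 0.15 and MUC5B 0.06. REP15 had 0.27 with both reagents, SLC4A4, a bicarbonate transporter gene, had -0.19 and the kallikrein gene KLK1 had -0.13.

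Of 29 listed transcription factor genes described for mucins, 26 were measured and 0 passed against negative siRNA. SPDEF, which drives goblet cell maturation, lay at 11.45 to 11.52 with negative siRNA, at 11.83 and 11.76 with siRNA 7 and at 11.54 and 11.36 with siRNA 9, a difference of 0.31 for siRNA 7 (adjusted p = 0.330). ATOH1, the secretory lineage factor, lay at 12.25 to 12.41 with negative siRNA, at 12.49 and 12.48 with siRNA 7 and at 12.16 and 12.17 with siRNA 9, differences of 0.18 and -0.14 (adjusted p = 0.708 and 0.569). The reagents thus stood on opposite sides of the negative arrays for ATOH1, and the difference between them was -0.32 (adjusted p = 0.136). With siRNA 9, SOX2 had 0.46 (adjusted p = 0.0821), FOXA1 0.43 and STAT6 -0.37 (adjusted p = 0.0854).

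CREB3L1, a membrane-bound factor of secretory cells named after its values were seen, was the regulator that differed between the reagents. It lay at 9.69 to 10.20 with negative siRNA, at 10.34 and 10.17 with siRNA 7 and at 9.48 and 9.44 with siRNA 9. siRNA 9 minus siRNA 7 was -0.80 (SE 0.15, limma adjusted p = 0.0223). The call ended with all probe sets tested and without any 1 of the 4 siRNA arrays, for siRNA 9 arrays a loss common to every gene. Over all alternatives the difference ran from -0.88 to -0.71.

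**Figure D4:**
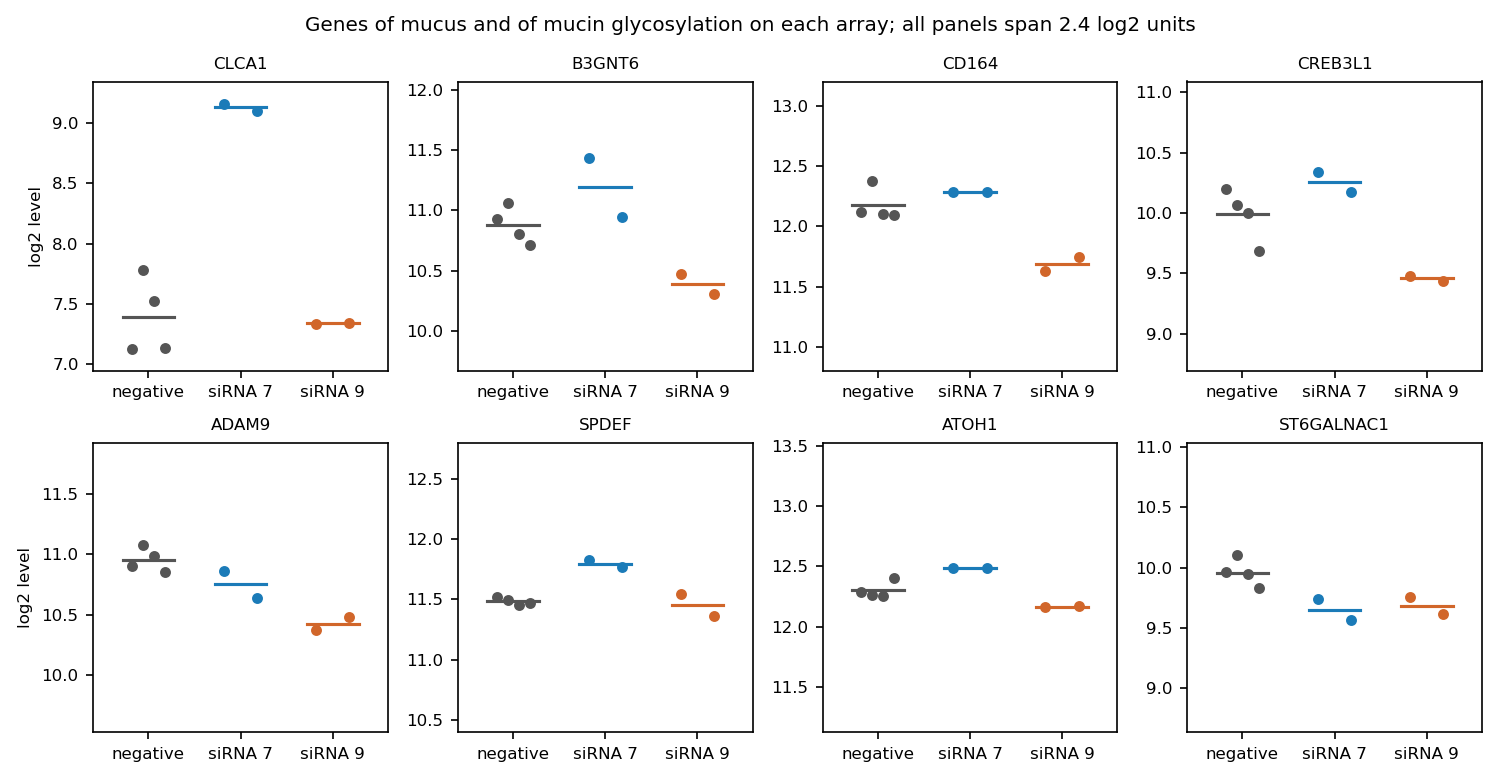
Log2 levels (vertical axis) of 8 genes of mucus, mucin glycosylation or mucin regulation on each array, by group (horizontal axis); points are arrays and lines are group means, and each panel spans the same height. CLCA1 is higher on both siRNA 7 arrays only, at 9.16 and 9.10, while CD164, B3GNT6, CREB3L1 and ADAM9 have their lowest values on the siRNA 9 arrays.

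Of 24 listed receptors, scaffolds and sheddases that act with membrane mucins, 22 were measured. ADAM9, a membrane metalloprotease gene, was the only one that passed, falling with siRNA 9. It lay at 10.91, 11.08, 10.99 and 10.86 with negative siRNA, at 10.86 and 10.64 with siRNA 7 and at 10.37 and 10.48 with siRNA 9, and the siRNA 9 difference was -0.53 (SE 0.10, limma adjusted p = 0.0357). The call ended without negative array 1 or 3, without either siRNA 9 array, with all probe sets and with the replicate number as a block. The loss without a siRNA 9 array, which leaves a single array of that reagent, was common to every gene. Over all alternatives the ADAM9 difference ran from -0.58 to -0.48. ERBB3, a receptor of the ERBB family, had -0.26 with both reagents (adjusted p = 0.800), with all siRNA arrays below all negative arrays. Such separation was found for 2.86% of all probe sets, among them the markers KRT8 (lower) and CD68 (higher). The adaptor gene GRB2 had 0.20 with both reagents, and ADAM17, a sheddase gene, had -0.34 with siRNA 7 (adjusted p = 0.342).

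Markers of cell type were set beside these values. Of 12 listed epithelial markers 10 were measured, and EPCAM at 12.38 and KRT8 at 13.08 on average with negative siRNA were far above the array medians; 0 passed, with a median difference of 0.03 for both reagents. Gastric mucous markers without mucins, 9 of 10 measured, had a median of 0.05 and 0 passed, with TFF1 at 9.16 with negative siRNA and a difference of 0.10. Intestinal goblet markers, all 12 measured and sharing CLCA1, SPDEF, ATOH1, REP15 and others with the lists above, had a median of 0.02 and CLCA1 as their 1 call, with siRNA 7; TFF3 had 0.02 with both reagents and SPINK4 -0.26.

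Of markers of other cells, PTPRC of leukocytes lay at 4.25 on average with negative siRNA, below the array medians, while LYZ, also made by epithelial cells, lay at 11.57 and CD68, also a lysosomal gene of many cells, at 9.11. Of 9 leukocyte markers measured 0 passed (median -0.00), and LYZ had a difference of -0.07 and CD68 of 0.17 with both reagents. The mean level of the leukocyte list lay between 6.29 and 6.56 on the negative arrays and 6.41 and 6.54 on the siRNA arrays. Of 10 fibroblast markers 0 passed (median 0.02); the list mean lay between 6.18 and 6.27 on the negative arrays and 6.13 and 6.30 on the siRNA arrays, with average negative levels of 4.10 for POSTN, below the array medians, and 9.90 for LUM and 7.74 for COL1A1, above them. LUM had a difference of -0.27 with both reagents (adjusted p = 0.903).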

How the data were processed

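The authors' deposited values are log2 expression levels for 32321 probe sets on 8 arrays. The submitters' processing notes name limma, with no role; normalization method, build and filters: not given in the sources used here. Once sorted, the arrays' values were within 0.181 of each other. Symbols came from the series' probe annotation, matched by gene ID to a RefSeq table of GRCh38.p14 (19128 found, 0 changed); 1388 probe sets with several symbols and 11775 with none were not tested.

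Both reagents against negative siRNA were fitted with 2 group means in limma, each reagent and their difference with 3 group means over all 8 arrays, with 2-sided moderated tests, Benjamini-Hochberg adjustment over 19158 probe sets and a threshold of 0.05. All comparisons with negative siRNA share its 4 arrays. The number of arrays limits the precision. Where a gene has several probe sets, the one of highest mean stands for it. The members and lists were chosen with earlier results of these data known. Named genes were all members, the MUC genes of the second list, from each other list up to 4 by smallest unadjusted p for both reagents and up to 2 for each reagent, and 4 of nearest profile. The main fits did not pair arrays by replicate number. Deviations from group means correlated at 0.02 to 0.31 for same-numbered arrays and at -0.31 to 0.16 for other arrays. The 2 arrays of a reagent deviate by equal and opposite amounts. Each value for array 1 of a reagent is thus that for array 2 with the sign changed. The highest was for negative array 2 with siRNA 7 array 2, so whether the numbers pair the arrays is not settled. The fits were tested on simulated data. Of shifts of 0.5 log2 units, 65.8% were called with both reagents, 31% with siRNA 7, 22.6% with siRNA 9 and 0% between reagents. Of shifts of 0.8 these were 93.4%, 81.7%, 82.3% and 76.5%. Unlike the real data, the simulated data held no difference between the reagents other than the added shifts. Many probe sets were shifted at once, which eases the Benjamini-Hochberg threshold. In the real fit with both reagents 1 of 19158 probe sets passed. The shares can thus be too high for the real data, and differences of these sizes or smaller could be missed. Fits ran in R 4.3.3 (limma 3.58.1, with statmod 1.5.0), and plots were drawn with matplotlib 3.10.9.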

Additional observations from a re-analysis of the deposited data

Results flagged for a closer look

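Among the mucin probe sets, 1 of 24 groups of 4 arrays had a sample set apart from the rest by Dixon's ratio. Over all genes named with values it was 9 of 140. For 4 values of 1 population chance gives about 1 in 20. The TRIM44 siRNA groups of 4 mix the reagents, and many genes were named by small p, so that rate is a rough guide. On the third MUC12 probe set the lowest negative array lay apart from the others, whose highest was 5.04 (ratio 0.883). On the negative arrays the highest value lay apart for CD164, at 12.37 (0.901), TFF1, at 9.60 (0.917), and TFF3, at 10.995 (0.861); for these 3 genes and the MUC12 probe set that array was negative array 2. On the TRIM44 siRNA arrays the lowest value lay apart for CHST5, at 7.94 (0.866), FOXA1, at 8.95 (0.951), and COL1A1, at 7.67 (0.834), and the highest for REP15, at 8.69 (0.864), and VSIG1, at 6.54 (0.882).

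The reagents differed, by the limma test of siRNA 9 minus siRNA 7, for CLCA1 (-1.79), B3GNT6 (-0.80), CREB3L1 (-0.80) and CD164 (-0.60). These were 1 each of 24, 27, 26 and 11 measured genes of their lists. The lists were chosen with earlier results of these data known, so these counts are no test of them. Of 16 GALNT genes and 22 membrane mucin partners 0 passed, and of all 19158 probe sets 428 (2.23%) did. All 4 calls ended with all probe sets tested and without either siRNA 9 array. None of the 12 mucin probe sets differed by that test.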

How the results depend on the processing

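In limma 0 of 12 mucin probe sets passed in any of the 4 comparisons under any of 16 or 17 alternatives tried for each. Among these were array weights, a trended and robust prior, median centring, quantile normalization and the brighter 50% of probe sets. Others were all probe sets, another choice of arrays in the fit and each array left out. The lowest adjusted p of a mucin were 0.397 with both reagents, 0.255 with siRNA 7 and 0.143 with siRNA 9, each with array weights. Of all 19158 probe sets, array weights passed 33 with both reagents, 70 with siRNA 7, 2082 with siRNA 9 and 1063 between reagents. With both reagents, the main fit and quantile normalization each passed 1 of all and median centring 0. A count of 0 of 12 thus says little in these fits. Of the mucin differences under these settings, 27 of 197, 17 of 185, 26 of 185 and 10 of 185 changed sign. With the brighter 50% of probe sets, dim mucin probe sets were not tested. For TRIM44 the difference was -0.81 after median centring, with all probe sets and with the siRNA as a random block (adjusted p = 0.108, 0.442 and 0.108), and with each array left out it ran from -0.87 to -0.73. With the replicate number as a block TRIM44 had -0.88 (adjusted p = 0.998) and 0 of 12 mucin probe sets passed. Under that block MUC16 moved from 0.06 to -0.25 with both reagents. Whether arrays of the same number belong together is not stated. For genes outside the mucins that passed, the same alternatives were added after seeing the data, and each kept its direction.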
